A study of Mus musculus with 12 samples.

Results

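The 10 genes described here handle lipid in macrophages: the receptor gene *Trem2*, *Gpnmb*, the fatty acid binding protein genes *Fabp4* and *Fabp5*, *Lpl*, *Apoe*, *Plin2*, the cholesterol exporter genes *Abca1* and *Abcg1*, and *Spp1*. They were chosen by name, and each had 1 row among the 31053 genes of both deposited count matrices. The study sequenced single cells from spontaneous breast tumors of PyMT mice, which express polyoma middle T from the mouse mammary tumor virus promoter, in 12 samples. PyMT-PAR2 WT mice carried wild-type protease activated receptor 2, and PyMT-PAR2 G37I mice carried a receptor that resists signaling by coagulation factor Xa. From each genotype, late-stage tumors gave 3 samples enriched for CD11c with beads, and mid-size tumors gave 3 samples enriched for CD4 and CD8, without further treatment. All of these animals carried the PyMT transgene on a B6(Cg) background and were female, and the labels give no age. The bead selection set which cells were seen, so macrophages among CD4/CD8-selected cells were cells that came along with T cells.

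Macrophages that take up dying cells or lipoproteins break the lipid down in lysosomes, store part of it as cholesteryl ester and triglyceride in droplets, and return cholesterol to the outside through transporters. TREM2 senses lipids and apoptotic cells at the surface, lipoprotein lipase frees fatty acids from triglyceride-rich particles, fatty acid binding proteins carry them inside the cell, perilipin 2 coats droplets, and ABCA1 and ABCG1 load cholesterol onto acceptors such as apolipoprotein E. Macrophages rich in *Trem2*, *Gpnmb*, *Spp1* and the fatty acid binding protein genes are known as lipid-associated macrophages and occur in fat tissue, atherosclerotic lesions and tumors.

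On GRCm38, in the GENCODE M21 annotation, *Fabp5* (chr3:10012548-10016607, plus strand) and *Fabp4* (chr3:10204088-10208576, minus strand) lay on the same chromosome, as did *Abca1* (chr4:53030787-53159895, minus strand) and *Plin2* (chr4:86648386-86670060, minus strand). *Abcg1* (chr17:31057675-31117988, plus strand) and *Trem2* (chr17:48346401-48354147, plus strand) shared another. The remaining genes were *Spp1* (chr5:104435118-104441050, plus strand), *Gpnmb* (chr6:49036546-49070929, plus strand), *Apoe* (chr7:19696109-19699188, minus strand) and *Lpl* (chr8:68880491-68907448, plus strand). All 10 are protein-coding. Of the distinct 50-base words in the transcripts of *Spp1*, 11.6% also occurred in Gm42793, an annotated gene that overlaps it on the same strand. For *Fabp5* the share found in other genes was 5.48%, mostly in Gm6166, for *Plin2* it was 2.57%, for *Lpl* 1.14%, and for *Abcg1* 0.177%. The other 5 members shared no such word, so reads from *Fabp5*, *Plin2* and *Spp1* are the least certain to be assigned to a single gene.

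The promoters of *Gpnmb*, *Spp1* and *Trem2* are shown because the UMIs of these genes rose together across macrophages, as described below. Each runs from 250 bases before the RefSeq start site to 50 bases after it, on GRCm38.p6, and capitals mark the searched motifs on either strand. The *Gpnmb* window is chr6:49036268-49036567, plus strand, the first *Spp1* window is chr5:104434861-104435160, plus strand, and the *Trem2* window is chr17:48346151-48346450, plus strand.
Gpnmb: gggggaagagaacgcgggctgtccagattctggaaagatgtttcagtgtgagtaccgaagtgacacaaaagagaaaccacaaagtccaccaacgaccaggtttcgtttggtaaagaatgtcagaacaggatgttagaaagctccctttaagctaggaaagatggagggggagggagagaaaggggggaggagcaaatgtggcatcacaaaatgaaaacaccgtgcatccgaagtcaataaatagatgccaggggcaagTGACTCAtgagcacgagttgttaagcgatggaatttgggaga
Spp1: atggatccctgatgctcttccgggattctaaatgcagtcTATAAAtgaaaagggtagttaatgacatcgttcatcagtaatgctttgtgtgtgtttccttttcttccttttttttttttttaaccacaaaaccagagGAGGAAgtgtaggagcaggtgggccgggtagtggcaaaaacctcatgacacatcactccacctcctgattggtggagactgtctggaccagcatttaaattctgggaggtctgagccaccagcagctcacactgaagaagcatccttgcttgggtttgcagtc
Trem2: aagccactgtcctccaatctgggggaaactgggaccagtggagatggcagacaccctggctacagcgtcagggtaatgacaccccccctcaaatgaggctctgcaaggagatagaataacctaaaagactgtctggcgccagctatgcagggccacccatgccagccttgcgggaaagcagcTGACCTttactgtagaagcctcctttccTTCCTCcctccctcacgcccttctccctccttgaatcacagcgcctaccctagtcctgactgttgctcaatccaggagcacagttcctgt

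The table of promoters held 9 windows for 6 of the members, with several start sites for *Apoe* and *Spp1*. Entries for *Fabp4*, *Fabp5*, *Lpl* and *Abcg1* were not used here. The AP-1 site TGACTCA was found in the *Gpnmb* window alone among the 9, starting at base 9 after the start site, and in 5.20% of the 32851 windows of all genes. The PU.1 core GAGGAA, whose factor is needed for macrophage development, occurred in 4 of the 9 windows, among them those of *Spp1* and *Trem2* printed above, and in 28.3% of all windows. The nuclear receptor motif AGGTCA was present in the *Trem2* and *Plin2* windows and in 16.3% of all windows. The E-box CACGTG, which reads the same on both strands, occurred in the *Abca1* and *Plin2* windows and in 7.15% of all. TATAAA lay in 3 of the 9 windows and in 13.6% of all, and the M-box core TCATGTG lay in none of the 9 and in 3.77% of all. These are matches of letters in short windows, and no binding was measured.

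Counts are unique molecular identifiers (UMIs), each of which stands for a captured mRNA molecule. Cell barcodes carried no sample name, so each matrix was treated as 1 pooled sample, no genotypes were compared, and no test or replicate error can be given. Intervals (95%, Poisson for UMIs and Clopper-Pearson for shares of cells) cover counting error only. Of 11980 CD11c-selected barcodes, 11639 with at least 200 detected genes were kept (123642015 UMIs, median 7943 a cell), and of 23101 CD4/CD8-selected barcodes, 22806 were kept (135965765 UMIs, median 4361 a cell). The barcodes of each matrix passed through the alphabet 6 times, and these 6 barcode runs, which were linked to no sample, serve as the only view of spread within a matrix. A run held 360 to 2784 cells in the CD11c-selected matrix and 2344 to 5173 in the other. In the CD11c-selected matrix 76 barcodes and in the CD4/CD8-selected matrix 51 occurred more than once, and 92 barcodes occurred in both.

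Macrophages were gated as cells with at least 3 UMIs of *C1qa*, a complement gene that tissue macrophages express. The gate held 7230 CD11c-selected cells, 62.1% of those kept (61.2 to 63.0), and 1084 CD4/CD8-selected cells, 4.75% (4.48 to 5.04). Of a list of 12 macrophage markers, 11 were detected in at least 25% of the gated CD11c-selected cells and 12 in the gated CD4/CD8-selected cells. The median gated cell had 8337 UMIs in the first matrix and 16186 in the second. Markers of another gate were also met by 497 (6.87%) and 107 (9.87%) of these cells. The other gates required fewer than 3 *C1qa* UMIs and were set on *Xcr1* or *Clec9a* (cDC1), *Cd209a* with *Flt3* (cDC2), *Ccr7* with *Fscn1* (migratory DCs), *Retnla* with *Ear2* (a further group of myeloid cells), *S100a8*, *S100a9* and *Csf3r* (neutrophils), *Cd3e* with *Trbc2* (T cells), *Epcam* with *Krt8* or *Krt18* (tumor cells), *Col1a1* with *Dcn* (fibroblasts), and *Pecam1* with *Cdh5* (endothelial cells). Among CD11c-selected cells they held from 33 endothelial cells to 391 cDC1. Among CD4/CD8-selected cells 15547 T cells, 275 tumor cells, 60 fibroblasts and 46 endothelial cells were compared, and DC, *Retnla Ear2* and neutrophil gates, with 10 cells or fewer, were not.

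Levels are UMIs in every 1000000 UMIs of the gated cells (CPM), and they compare cell types for a gene, not genes with each other. Among CD11c-selected macrophages, *Trem2* stood at 437 CPM (433 to 442) over all runs, with 283 in the lowest run, a median of 425 and 557 in the highest. In every other gate of that matrix it stood at 6.71 CPM or less, and 0 UMIs were found in T cells and endothelial cells. The macrophage level was 128-fold that of cDC1, 83.6-fold that of cDC2, 99.6-fold that of migratory DCs and 65.1-fold that of *Retnla Ear2* cells. *Trem2* UMIs were thus nearly absent outside the macrophage gate among these named cell types. Where other gates had 1 to 3 UMIs the level is poorly known, as in neutrophils with 1 UMI (3.52 CPM, 0.0891 to 19.6) and in fibroblasts with 3 UMIs in either matrix. CD4/CD8-selected macrophages had 1251 CPM of *Trem2* (1236 to 1267), against 2.60 CPM in T cells and 2.52 CPM in tumor cells.

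*Gpnmb*, which encodes a transmembrane glycoprotein of lysosomes and the cell surface, stood at 309 CPM (305 to 312) in CD11c-selected macrophages, with 168 in the lowest run, a median of 248 and 495 in the highest. Levels in cDC1, cDC2, migratory DCs, *Retnla Ear2* cells and tumor cells were between 0.561 and 1.77 CPM. Fibroblasts were the exception, with 66.0 CPM (53.6 to 80.5) among CD11c-selected and 51.8 CPM (38.9 to 67.6) among CD4/CD8-selected cells, so that macrophages were 4.67-fold and 9.81-fold higher. In CD4/CD8-selected macrophages *Gpnmb* reached 508 CPM (498 to 518), and its level by run went from 3.01 CPM, a single UMI in 42 cells, to 640 CPM.

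*Spp1*, which encodes the secreted matrix protein osteopontin, was found at high levels in both macrophages and tumor cells. Its level was 4193 CPM (4179 to 4207) in CD11c-selected macrophages, with 1446 in the lowest run, a median of 3968 and 6935 in the highest. Tumor cells had 3293 CPM (3251 to 3335) in the same matrix and 8462 CPM (8398 to 8526) in the other, where macrophages had 8743 CPM (8701 to 8784). The ratio of macrophages to tumor cells was 1.27 and 1.03. Macrophage runs spread by 4.80-fold in the first matrix and from 418 to 12240 CPM in the second. There, macrophages without the largest run, which held 533 of the 1084, had 2439 CPM. In the pooled levels *Spp1* was the only member under 2-fold against tumor cells in both matrices. After each cell was thinned to 2000 UMIs, 45.9% of CD11c-selected tumor cells (39.5 to 52.4) and 25.4% of macrophages (24.3 to 26.5) had a UMI of *Spp1*, while for *Trem2* the shares were 0.410% (0.0104 to 2.26) and 34.6% (33.4 to 35.8). Unthinned, the *Spp1* shares were 61.7% and 46.1%, at median depths of 14741 and 8337 UMIs. For comparison, among CD11c-selected T cells 10.6% of 47 thinned cells (3.55 to 23.1) had a UMI, at a median of 4660 UMIs. *Spp1* was far lower in cDC1 (106 CPM), cDC2 (39.9 CPM), migratory DCs (42.8 CPM) and *Retnla Ear2* cells (33.7 CPM).

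The fatty acid binding protein genes each had a cell type in which they exceeded macrophages. *Fabp5* stood at 809 CPM (803 to 816) in CD11c-selected macrophages, with 378 in the lowest run, a median of 696 and 1375 in the highest. Migratory DCs, the mature DCs that carry antigen to lymph nodes, had 3529 CPM (3443 to 3616), 4.36-fold the macrophage level, and 80.4% of them (73.5 to 86.1) had a UMI after thinning against 23.4% of macrophages (22.4 to 24.5). Unthinned, these shares were 88.7% and 41.1%, at medians of 9656 and 8337 UMIs, and 6.38% of thinned T cells (1.34 to 17.5) had a UMI. cDC1 had 9.24 CPM and cDC2 136 CPM of *Fabp5*, both below macrophages. In CD4/CD8-selected cells *Fabp5* stood at 2394 CPM (2372 to 2416) in macrophages, 349 CPM in tumor cells and 48.1 CPM in T cells.

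*Fabp4*, the gene of the adipocyte form, which capillary endothelium also expresses, had its highest level in endothelial cells. Endothelial cells had 2109 CPM (1993 to 2230) among CD11c-selected and 1466 CPM (1380 to 1557) among CD4/CD8-selected cells. CD11c-selected macrophages had 20.03 CPM (19.1 to 21.0), with 10.6 in the lowest run, a median of 18.0 and 26.1 in the highest, and fibroblasts 67.4 CPM (54.8 to 81.9). The endothelial level was 105-fold and 20.4-fold that of macrophages. Only 33 and 46 endothelial cells were gated, and 42.4% and 26.1% of them had a *Fabp4* UMI without thinning. Neutrophils and CD11c-selected T cells had 0 UMIs of *Fabp4*, which allows up to 10.6 and 9.84 CPM, so that macrophages were at least 1.90-fold and 2.04-fold higher. In migratory DCs it stood at 26.9 CPM (19.9 to 35.5), close to macrophages.

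*Lpl*, the gene of lipoprotein lipase, was highest in the *Retnla Ear2* cells, at 1299 CPM (1270 to 1329), 3.86-fold the 337 CPM (333 to 341) of CD11c-selected macrophages. By run, macrophages had 233 at the lowest, a median of 366 and 380 at the highest. After thinning, 75.9% of *Retnla Ear2* cells (70.5 to 80.7) and 25.2% of macrophages (24.1 to 26.3) had a UMI of *Lpl*, and unthinned 95.9% and 44.0%, with median depths of 17360 and 8337 UMIs. These cells also expressed 9 of the 12 macrophage markers in at least 25% of cells, at 3064 CPM summed over the list against 15825 CPM in the macrophage gate. The *Retnla* and *Ear2* markers were met by 607 cells, of which 290 were kept in this gate. The others had at least 3 *C1qa* UMIs or met the markers of a further gate, and how many of them lay in the macrophage gate was not counted. Fibroblasts had 461 CPM (427 to 497) and 408 CPM (370 to 448) of *Lpl* in the 2 matrices, against 337 and 700 CPM in macrophages. cDC1, cDC2, neutrophils and tumor cells were at 10.1 CPM or less in the CD11c-selected matrix, and T cells had 0 UMIs, which allows up to 9.84 CPM and, for 0 of 47 thinned cells, a share of up to 6.38%.

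*Apoe*, whose product carries cholesterol and binds lipoprotein receptors, stood at 17712 CPM (17682 to 17741) in CD11c-selected macrophages, with 14003 in the lowest run, a median of 18180 and 20393 in the highest. Neutrophils had 1317 CPM, fibroblasts 669 CPM, and the remaining gates between 134 and 318 CPM. CD4/CD8-selected macrophages had 40376 CPM (40287 to 40465). It was the only member whose levels by barcode run did not overlap between the matrices, 14003 to 20393 CPM against 28308 to 44250 CPM. The share of all genes separated in this way was not computed. The matrices differed in bead selection and tumor stage, and these cannot be told apart.

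*Plin2*, the droplet coat gene, was spread more widely. CD11c-selected macrophages had 518 CPM (513 to 524), with 438 in the lowest run, a median of 498 and 713 in the highest, neutrophils 437 CPM (363 to 520) and *Retnla Ear2* cells 334 CPM (319 to 350). The ratio of macrophages to neutrophils was 1.19 and to *Retnla Ear2* cells 1.55, both smaller than the 1.63-fold between the highest and lowest macrophage runs. Tumor cells had 172 CPM in this matrix and 251 CPM in the other, where macrophages had 590 CPM. The lowest level among CD11c-selected cells was that of migratory DCs, 32.4 CPM (24.6 to 41.7), and among CD4/CD8-selected cells that of T cells, 13.8 CPM (13.0 to 14.6).

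The exporter genes differed from each other by cell type. *Abca1* stood at 347 CPM (343 to 351) in CD11c-selected macrophages, with 283 in the lowest run, a median of 327 and 486 in the highest, and was higher in neutrophils, at 591 CPM (505 to 688) in 93 cells. Endothelial cells had 233 CPM (195 to 275), and cDC1 only 1.94 CPM (1.03 to 3.31). *Abcg1* stood at 144 CPM (142 to 147) in macrophages, with 120 in the lowest run, a median of 140 and 169 in the highest, and was found in every gate of this matrix, from 14.1 CPM in fibroblasts to 91.7 CPM in endothelial cells. T cells expressed *Abcg1* as well: among CD4/CD8-selected cells they had 39.8 CPM (38.5 to 41.1), 18.0% of the macrophage level (17.4 to 18.6).

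**Figure D1:**
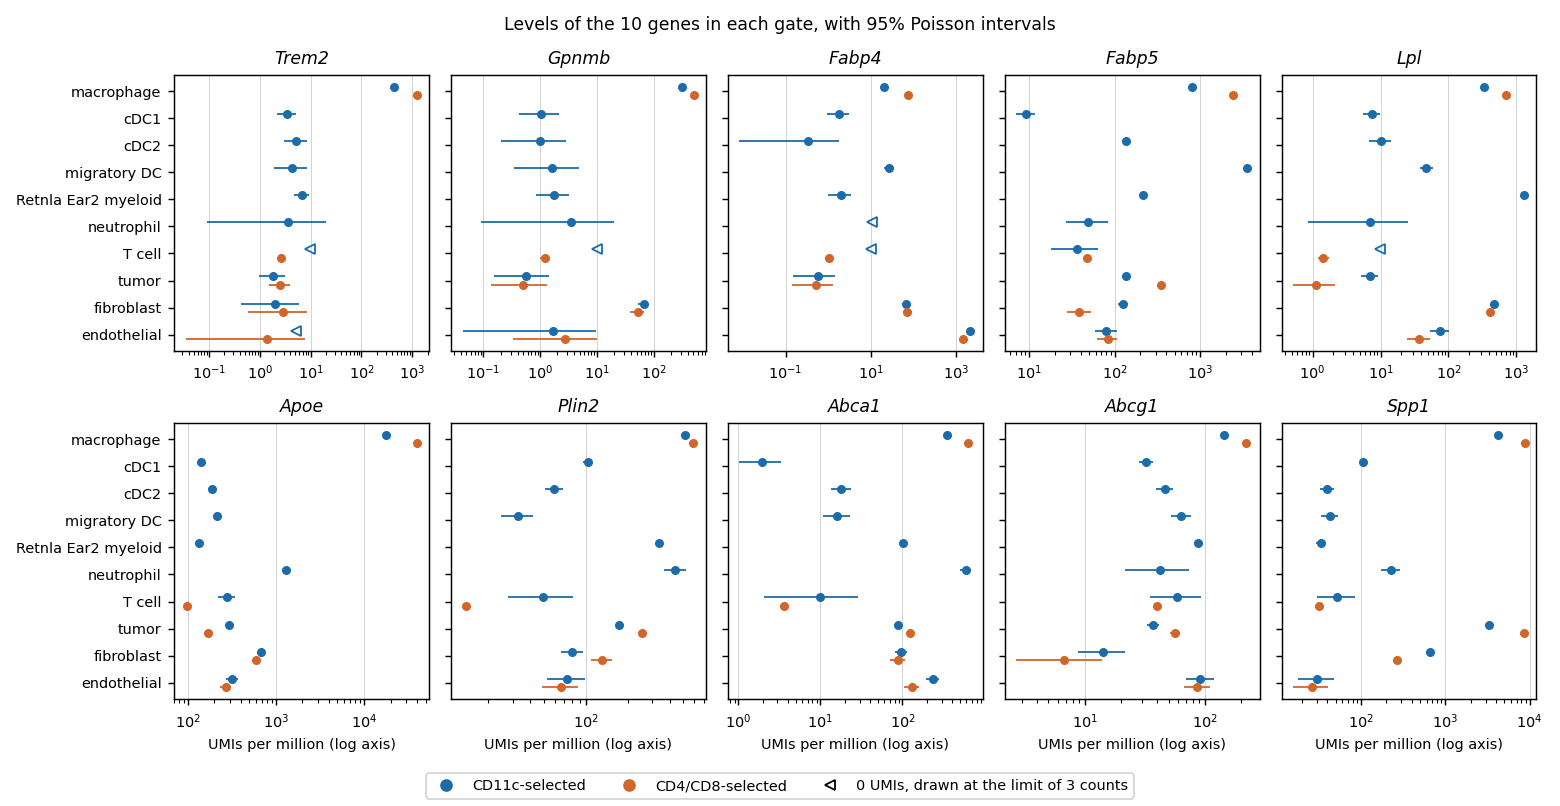
Levels of each of the 10 genes (CPM, log axis) in macrophages and the other gates of the CD11c-selected and CD4/CD8-selected matrices, with 95% Poisson intervals; open triangles mark 0 UMIs at the limit that 3 counts give. *Trem2* is above 400 CPM only in macrophages, while *Fabp4* peaks in endothelial cells, *Fabp5* in migratory DCs, *Lpl* in *Retnla Ear2* cells, and *Spp1* is at 3293 CPM or more in macrophages and tumor cells of both matrices.

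T cells do not make complement C1q, so its genes give the level of RNA from other cells in the CD4/CD8-selected T cell gate. *C1qb* stood in T cells at 0.208% of its macrophage level (0.194 to 0.223), *C1qc* at 0.175% (0.160 to 0.191) and *Lyz2* at 0.214% (0.208 to 0.220). *Cd68*, another macrophage marker, stood higher, at 1.09%. *Trem2* (0.207%, 0.182 to 0.236), *Gpnmb* (0.239%, 0.196 to 0.288) and *Lpl* (0.207%, 0.173 to 0.246) overlapped *C1qb* in their intervals and are read as background in T cells. *Apoe* was slightly above, at 0.240% (0.235 to 0.245), *Spp1* stood at 0.366% (0.353 to 0.380) and *Abca1* at 0.573% (0.512 to 0.639). *Fabp4* at 1.44%, *Fabp5* at 2.01%, *Plin2* at 2.34% and *Abcg1* at 18.0% were further above. The C1q genes give no level for RNA from other cell types. In this matrix *Spp1* stood at 8462 CPM in tumor cells and *Fabp4* at 1466 CPM in endothelial cells. The source of the UMIs of *Apoe*, *Spp1*, *Abca1*, *Fabp4*, *Fabp5* and *Plin2* in the T cell gate was not tested. Of these T cells, 14.4% (13.9 to 15.0) had a UMI of *Apoe* after thinning and 23.1% before it, at a median of 4748 UMIs, while 0.722% (0.592 to 0.872) had one of *Trem2* after thinning. The summed macrophage markers stood at 43.7 CPM in T cells against 17780 CPM in macrophages.

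Counted together, macrophages exceeded another gate by at least 2-fold for all 10 members against cDC1, where 23.8% of all genes with at least 50 UMIs did so, and for 10 against cDC2 (20.6% of all genes). Against migratory DCs 8 members were 2-fold higher (28.3% of all genes), against *Retnla Ear2* cells 7 (19.0%), and against neutrophils 7 (13.4%). Among CD11c-selected cells the count was 10 against T cells (15.3%), 9 against tumor cells (19.0%), 8 against fibroblasts (21.8%) and 7 against endothelial cells (14.5%). In the CD4/CD8-selected matrix it was 10 against T cells (23.8%), 9 against tumor cells (16.6%), 8 against fibroblasts (20.5%) and 9 against endothelial cells (14.3%). Set against all remaining CD11c-selected cells together, 8 members were 2-fold higher in macrophages (5.96% of all genes) and *Fabp4* was 2-fold lower (20.4%). These 4409 remaining cells included cells of no named gate and had 8 of the 12 macrophage markers in at least 25% of cells. Their summed macrophage markers stood at 1888 CPM and their *Trem2* at 37.2 CPM. In the CD4/CD8-selected matrix all 10 were 2-fold higher (16.6%) and none was 2-fold lower (32.0%). These members were chosen with earlier results known, so the counts describe them and test nothing.

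CD4/CD8-selected macrophages had higher pooled levels of every member than CD11c-selected ones, from 1.14-fold for *Plin2* to 3.59-fold for *Fabp4*. A single barcode run held 533 of the 1084 cells, however, and had the highest level of 8 members. Without that run, the ratio of the matrices fell from 2.86 to 1.28 for *Trem2*, from 2.96 to 1.18 for *Fabp5*, from 3.59 to 1.19 for *Fabp4* and from 1.65 to 1.22 for *Gpnmb*. For *Spp1* it went from 2.08 to 0.582, for *Lpl* from 2.08 to 0.789 and for *Abcg1* from 1.54 to 0.959, and the order of the matrices turned. It went from 2.28 to 1.89 for *Apoe*, from 1.14 to 1.19 for *Plin2* and from 1.82 to 1.05 for *Abca1*. The ranges of runs overlapped for 9 of the 10 members. No share over all genes was computed for this overlap, for the order of the pooled levels or for the run with the highest level. Apart from *Apoe*, *Plin2* and *Gpnmb*, the pooled ratios thus changed by over 1.5 times with 1 barcode run left out. Within the CD11c-selected matrix the highest run exceeded the lowest by 1.41-fold for *Abcg1*, 1.46-fold for *Apoe* and 4.80-fold for *Spp1*.

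**Figure D2:**
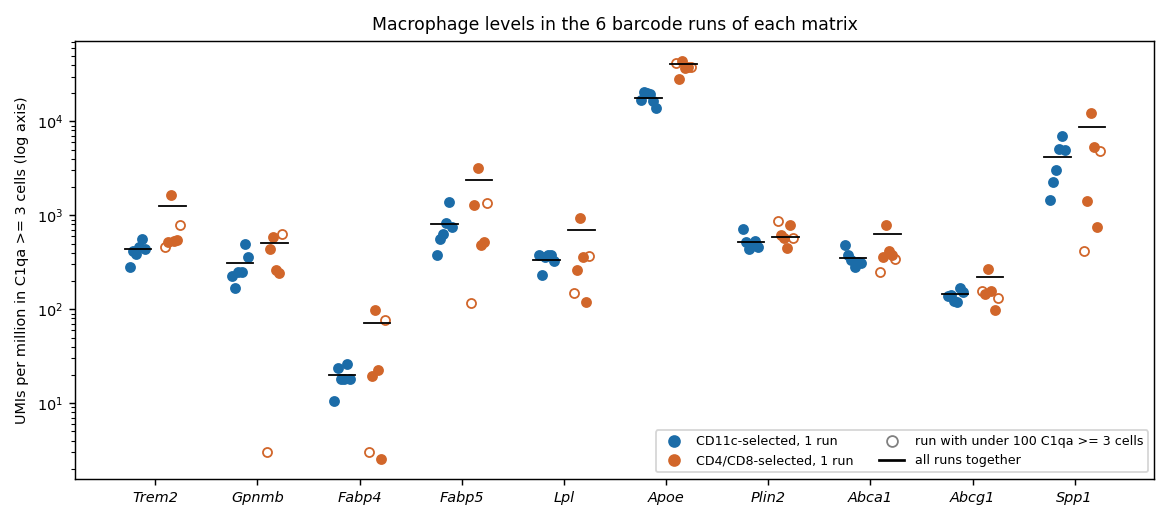
Macrophage levels of the 10 genes (CPM, log axis) in each of the 6 barcode runs of the CD11c-selected and CD4/CD8-selected matrices, with open circles for runs of under 100 macrophages and black lines for all runs together. Of the 10 genes, the CD4/CD8-selected run of 533 cells is highest for 8, and only the *Apoe* runs of the matrices do not overlap. The shares over all genes were not computed.

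Across cells, the members ranged from those found in most macrophages to those held by few. With each cell thinned to 5000 UMIs, which kept 4847 of the 7230 CD11c-selected macrophages, *Apoe* was detected in 96.0% of cells, *Plin2* in 79.8%, *Abca1* in 67.5% and *Trem2* in 54.8%. *Abcg1* was detected in 42.4%, *Lpl* in 39.7%, *Spp1* in 37.7% and *Fabp5* in 37.3%. *Gpnmb* was detected in 10.5% and *Fabp4* in 2.89%. The 485 cells with the most UMIs of a gene held 99.5% of the *Gpnmb* UMIs, 93.7% of those of *Spp1*, 81.8% of *Fabp5* and 61.6% of *Lpl*, but 32.7% of *Plin2* and 31.8% of *Apoe*. A cell had UMIs of 5 members at the median, and 31 cells (0.640%) had all 10. In CD4/CD8-selected macrophages (902 cells thinned) *Gpnmb* was detected in 40.6% of cells, the 90 cells with the most of it held 63.2% of its UMIs, and the median cell had UMIs of 7 members.

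*Gpnmb*, *Spp1* and *Trem2*, whose promoters are printed above, rose from cell to cell together with *Fabp5*. Among CD11c-selected macrophages the Pearson correlation of log-scaled UMIs was 0.74 for *Gpnmb* and *Spp1* (0.67 to 0.79 over the 6 runs), 0.64 for *Gpnmb* and *Fabp5* (0.54 to 0.70), 0.62 for *Fabp5* and *Spp1* (0.49 to 0.69), 0.51 for *Trem2* and *Spp1* (0.34 to 0.63) and 0.46 for *Trem2* and *Gpnmb* (0.32 to 0.59). Of the 510 cells with a UMI of *Gpnmb*, 90.8% also had *Spp1* and 87.3% *Fabp5*, while of the cells without *Gpnmb* 31.5% had *Spp1* and 31.5% had *Fabp5*. *Gpnmb* was found in 17.5% of cells with *Trem2* and in 2.10% of cells without it. Most cells with *Trem2* therefore had no *Gpnmb* UMI at this depth.

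*Apoe* was related to fewer members among CD11c-selected macrophages. It correlated with *Trem2* at 0.40 (0.35 to 0.53 over the runs) and with *Abca1* at 0.35 (0.31 to 0.37), but with *Fabp5* at 0.09 and with *Fabp4* at 0.02. *Lpl* and *Apoe* were the only pair with a negative coefficient, -0.14, with runs from -0.26 to 0.00. *Plin2* and *Abcg1* were weakly related to all other members, with highest coefficients of 0.20 for *Plin2*, with *Trem2*, and 0.14 for *Abcg1*, with *Spp1*. In all, 12 of the 45 pairs of members had a coefficient of at least 0.2, with a median of 0.14, where 0.0825% of all pairs of the 6986 genes found in at least 5% of cells did so. *Fabp4* fell below that detection limit in this matrix. In neither matrix were the background pairs matched to the members for UMI level.

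In CD4/CD8-selected macrophages 30 of the 45 pairs reached 0.2 (0.116% of all gene pairs), with a median of 0.30. *Fabp5* and *Spp1* correlated at 0.74, *Trem2* and *Spp1* at 0.70, and *Trem2* and *Fabp5* at 0.67. Within the 2 runs with at least 100 thinned cells these pairs were lower, at 0.48 and 0.62, 0.45 and 0.58, and 0.45 and 0.53. With each gene centered within its barcode run, 16 pairs reached 0.2. The low coefficient of *Apoe* and *Fabp5* in the other matrix was not seen here, where it was 0.33 (0.32 and 0.33 within the 2 runs). *Apoe* was at 0.28 with *Spp1* and 0.27 with *Gpnmb*, but at 0.15 with *Fabp4* and 0.12 with *Lpl*. *Plin2* was weakly related to the other members in this matrix too, with a highest coefficient of 0.16, with *Apoe*. Within the 2 runs of at least 100 thinned cells its coefficients lay between -0.05, with *Abcg1*, and 0.24, with *Fabp5*. Apart from those within runs or centered on them, the coefficients are over the pooled cells of a matrix and include differences between runs. Cells are not replicates, and the members' thinned levels also moved with the original depth of the cell. The coefficient with log depth was 0.27 for *Gpnmb*, 0.28 for *Spp1* and 0.30 for *Fabp5* among CD11c-selected macrophages, and 0.34, 0.53 and 0.52 among CD4/CD8-selected ones. The part of depth in these correlations was not tested.

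**Figure D3:**
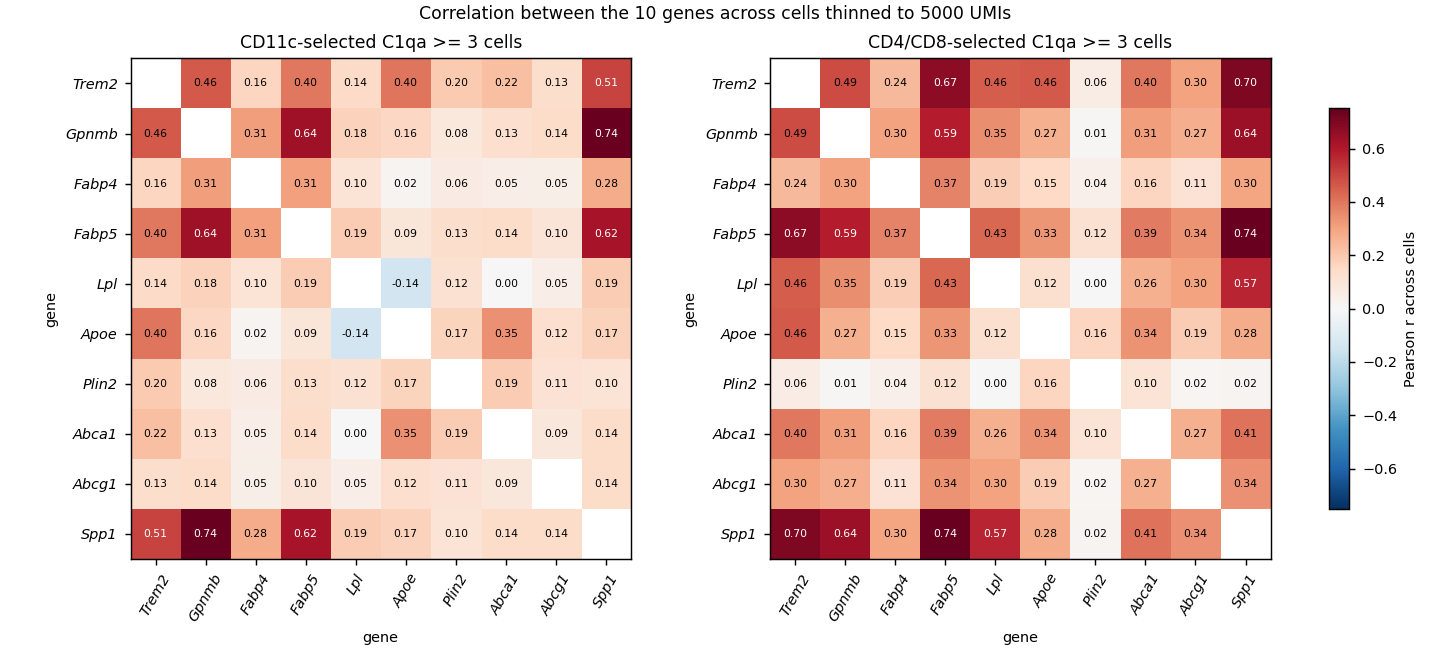
Pearson correlation across C1qa >= 3 cells thinned to 5000 UMIs for each pair of the 10 genes, over 4847 CD11c-selected and 902 CD4/CD8-selected macrophages, where red is positive and blue negative. *Gpnmb*, *Spp1*, *Fabp5* and *Trem2* form the block of high values in both panels, and *Plin2* is pale throughout.

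Over all genes detected in at least 5% of cells, the 3 genes most like each member were taken, other members included. *Ctsd* and *Ctsb*, which encode the lysosomal proteases cathepsin D and B, were among the 3 genes closest to *Trem2* in CD11c-selected macrophages (0.57 and 0.47), with *Spp1* between them. *Ctsd* was the gene outside the members closest to *Gpnmb* (0.53), *Fabp5* (0.50) and *Spp1* (0.54). *Plin2* was closest to *Ctsb* (0.35), *Ctsd* (0.29) and *Lgmn* (0.25), the gene of the lysosomal protease legumain. *Apoe* was most like *Ms4a7* (0.61), *Itm2b* (0.59) and *C1qa* (0.59), the gene that set the gate, *Abca1* like *Selenop* (0.40), *Ctsb* (0.39) and *Apoe* (0.35), and *Abcg1* weakly like *Ctss* (0.20), *Psap* (0.19) and *Ctsz* (0.17). *Lpl* had other neighbors: *Capg* (0.34), *Fn1* (0.33) and *Anxa2* (0.31), genes of an actin capping protein, fibronectin and annexin A2. *Fabp4* was closest to *Gpnmb* (0.31), *Fabp5* (0.31) and *Spp1* (0.28).

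At the other end, for *Trem2*, *Gpnmb*, *Fabp4*, *Fabp5* and *Spp1* in both matrices, were genes of antigen presentation by MHC class II. These were named after their values had been seen. The lowest coefficient of *Gpnmb* (-0.52), *Fabp4* (-0.20), *Fabp5* (-0.47) and *Spp1* (-0.56) in CD11c-selected macrophages was with *Cd74*, the gene of the invariant chain. That of *Trem2* (-0.45) was with *H2-Eb1*. In CD4/CD8-selected macrophages *Spp1* and *Cd74* were at -0.83, *Fabp5* and *H2-Aa* at -0.71, and *Trem2* and *H2-Aa* at -0.66. Such a gene was also lowest there for *Lpl* (*H2-Aa*, -0.48), *Abca1* (*H2-Eb1*, -0.43), *Abcg1* (*Cd74*, -0.31) and *Fabp4* (*H2-Eb1*, -0.27), but not for *Apoe* or *Plin2*. There *Ctsd* was again closest to *Trem2* (0.74), and *Spp1* was the closest gene to *Lpl* (0.57, but 0.17 and 0.42 within the 2 runs of at least 100 cells), ahead of *Hmox1* (0.48) and *Adam8* (0.47).

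Within the macrophage gate, cells with at least 2 UMIs of a further gene were set against cells with none. *Arg1*, the arginase gene of alternatively activated and tumor macrophages, went with high levels of the members. The 348 CD11c-selected macrophages with *Arg1* had 22980 CPM of *Spp1* against 1616 CPM in the 6715 without it, a ratio of 14.2. The ratio was 9.82 for *Gpnmb* (1457 against 148 CPM), 8.0 for *Fabp5* (3499 against 437 CPM), 7.63 for *Fabp4* (86.8 against 11.4 CPM) and 4.0 for *Trem2* (1280 against 320 CPM). *Lpl*, *Apoe*, *Plin2*, *Abca1* and *Abcg1* were between 1.38-fold and 1.94-fold higher. These 5 members at 2-fold or more compare with 5.65% of all genes, and none was 2-fold lower (7.85%). Cells with *Arg1* were deeper (median 21920 against 7937 UMIs), and the count was the same, 5, after each cell was thinned to 5000 UMIs.

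*Ccr2*, the chemokine receptor of recently recruited monocytes, went with low levels. In the 2114 CD11c-selected macrophages with *Ccr2*, 5 members were 2-fold lower than in the 4485 without it (5.88% of all genes) and none was 2-fold higher (3.70%). *Gpnmb* stood at 70.3 against 484 CPM, *Spp1* at 1085 against 6410 CPM, *Fabp5* at 327 against 1176 CPM, *Trem2* at 238 against 577 CPM and *Apoe* at 10901 against 22420 CPM. *Lpl* went the other way, at 429 against 290 CPM. Cells with *Ccr2* were deeper (median 11067 against 6775 UMIs), and by the mean over cells in place of the sum 3 members were 2-fold lower. *Ly6c2*, a marker of classical monocytes, was present in 187 cells, where 1 member, *Fabp4*, was 2-fold higher (3.58% of all genes), at 97.0 against 17.8 CPM, and none was 2-fold lower (7.31%). After thinning to 5000 UMIs, 0 members were higher and 2 lower beside *Ly6c2*.

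*Lyve1*, a marker of resident tissue macrophages, also went with low levels of several members. In 291 macrophages with *Lyve1*, 6 members were 2-fold lower than in 6791 without it (12.3% of all genes) and none was 2-fold higher (8.77%). *Gpnmb* stood at 43.2 against 327 CPM, *Spp1* at 714 against 4438 CPM, *Lpl* at 111 against 350 CPM and *Abcg1* at 62.2 against 149 CPM, while *Trem2* was at 322 against 445 CPM, *Apoe* was at 20262 against 17523 CPM and *Abca1* at 466 against 336 CPM. *Fabp4*, counted among the 6 at a ratio of 0.374, stood at 1.10 by the mean over cells. With *Il10*, the gene of an anti-inflammatory cytokine, in 1151 cells, 4 members were 2-fold lower (4.91%) and none 2-fold higher (3.92%), and *Abca1* was at 488 against 310 CPM. Cycling macrophages, 599 cells with *Mki67*, had 0 members 2-fold higher (5.72%) and 0 lower (2.20%), with *Trem2* at 433 against 432 CPM and *Apoe* at 11450 against 19389 CPM. These cells were deeper (median 18516 against 7586.5 UMIs), and after thinning 2 members were 2-fold lower.

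Among CD4/CD8-selected macrophages *Arg1* again went with higher levels, but by less for all members except *Lpl* and *Abca1*. *Spp1* stood at 14023 CPM in 285 cells with *Arg1* against 4530 CPM in 736 without it, and *Trem2* at 1690 against 895 CPM. The ratio for *Lpl* was 2.03 (1.94 in the other matrix) and for *Abca1* 1.65 (1.47). Here 3 members, *Fabp4*, *Lpl* and *Spp1*, were 2-fold higher (2.15% of all genes) and none was 2-fold lower (8.39%). In the 96 cells with *Ccr2*, *Gpnmb* stood at 65.7 against 559 CPM and *Spp1* at 726 against 9590 CPM, but *Lpl*, higher beside *Ccr2* in the other matrix, was at 469 against 720 CPM. In the 31 cells with *Lyve1*, *Apoe* was at 19978 against 40987 CPM, also opposite in order to the CD11c-selected cells. The low levels beside *Il10* were not seen in this matrix, where *Gpnmb* was at 465 against 533 CPM and *Spp1* at 9843 against 8622 CPM in 173 cells with and 827 without it. Nor was the high *Fabp4* beside *Ly6c2*, which was at 34.2 against 75.7 CPM in 44 cells with and 1007 without it. Because 533 of these macrophages came from 1 barcode run, its part in these differences was not tested.

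**Figure D4:**
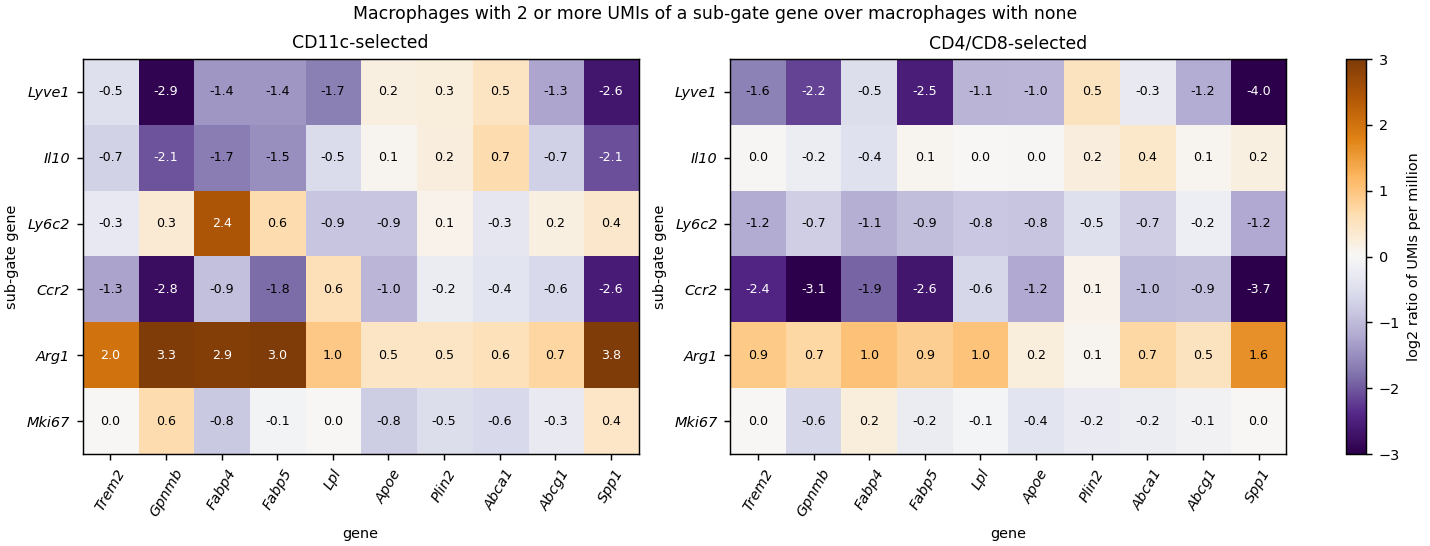
Log2 ratio of CPM between macrophages with at least 2 UMIs of a sub-gate gene (rows) and those with none, for each of the 10 genes (columns), in CD11c-selected and CD4/CD8-selected cells, with colors that stop at 3 in either direction. The *Arg1* row is positive for all 10 genes in both panels, from 1.38-fold to 14.2-fold in CD11c-selected cells, and the *Ccr2* row is lowest for *Gpnmb* and *Spp1*.

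Other genes of lipid handling were described from lists ordered by role, as the ratio of macrophages to all other cells of the same matrix, where the median of all genes was 0.888 among CD11c-selected and 0.755 among CD4/CD8-selected cells. Among CD11c-selected cells, these other cells also carried macrophage markers, as given above. Of 10 uptake receptors, 4 were 2-fold higher in CD11c-selected macrophages and 1 lower (median ratio 1.65). *Marco*, a scavenger receptor gene, had 98 UMIs in macrophages and 1 in all others, and the phagocytic receptor gene *Mertk* was at a ratio of 10.5, while the VLDL receptor gene *Vldlr* was at 0.0410. Of 10 genes of lysosomal lipid breakdown and export, 5 were higher and none lower (median 1.99), with the phospholipase gene *Pla2g15* at 5.82, the saposin precursor gene *Psap* at 1.46 and the sphingomyelinase gene *Smpd1* at 1.16. In the list of genes known beside these members in lipid-associated macrophages, 10 of 14 were higher and none lower (median 3.88), led by *Cd5l* (26.2) and *Atp6v0d2* (6.72), with *Capg* at 1.11 and *Cd9* at 0.661. These shares stand beside 5.96% of all genes higher and 20.4% lower.

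The lists of storage, oxidation and synthesis held fewer genes that were higher in macrophages. Their counts, too, stand beside 5.96% of all genes higher and 20.4% lower. Of 11 droplet genes tested, 2 were higher, the ester hydrolase gene *Nceh1* (3.33) and the cholesterol esterifying enzyme gene *Soat1* (2.26), and 3 lower, among them *G0s2* (0.0225), an inhibitor of lipolysis, and the monoglyceride lipase gene *Mgll* (0.117). Of 12 LXR and PPAR receptor and target genes, 3 were higher and 2 lower, with the LXR alpha gene *Nr1h3* at 3.10, *Mylip* at 2.38, *Srebf1* at 0.494 and *Apoc1* at 0.327. None of 10 cholesterol synthesis genes was higher and 4 were lower (median 0.684), with *Insig1* at 1.13, *Sqle* at 0.468 and *Idi1* at 0.398. Of 10 fatty acid oxidation genes 1 was lower, the carnitine carrier gene *Slc25a20* (0.356), and none was higher. Among 11 genes of fatty acid binding, activation and synthesis, *Fabp3* (6.75) and *Fabp7* (2.35) were higher, and the desaturase gene *Scd1* was lower (0.0428).

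The CD4/CD8-selected matrix, where most other cells were T cells, had 8 of 10 uptake genes, 9 of 10 lysosomal genes and 13 of 14 of the lipid-associated list 2-fold higher in macrophages, beside 16.6% of all genes higher and 32.0% lower. Cholesterol synthesis again stood lower, with 6 of 10 genes 2-fold lower and 1 higher. For the LXR and PPAR list the count was 10 of 12 higher, with *Pltp*, the phospholipid transfer protein gene, at 75.6. Of the 11 genes of fatty acid binding, activation and synthesis 3 were higher and 2 lower (median 1.54), with *Fabp7* at 184, *Fabp3* at 64.4, *Fasn* at 0.472 and *Scd1* at 0.268. Fatty acid oxidation had 2 of 10 genes higher, *Cpt2* (3.80) and *Cpt1a* (2.62), a share near the 16.6% of all genes.

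**Figure D5:**
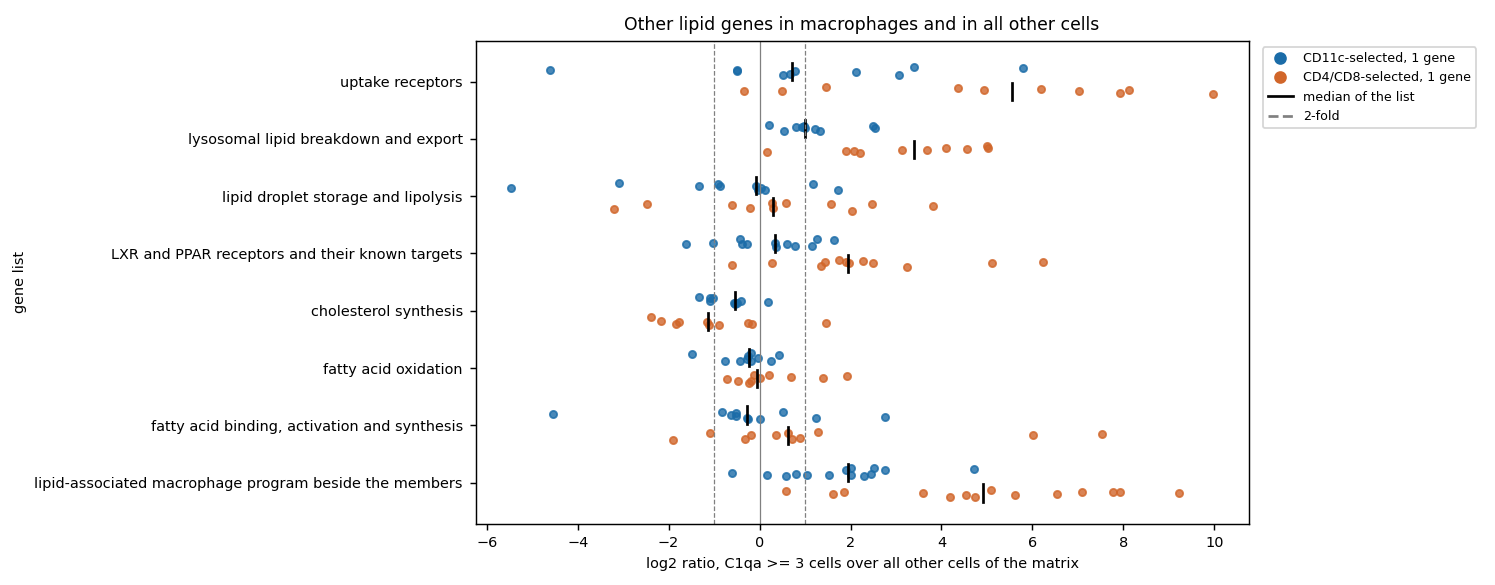
Log2 ratio of C1qa >= 3 cells to all other cells of the same matrix for each gene of 8 lists of lipid handling, with black bars for the median of a list and dashed lines at 2-fold. The lysosomal list lies to the right in both matrices, as does the lipid-associated list but for *Cd9* at 0.661 in CD11c-selected cells, and the cholesterol synthesis list lies to the left of 0 for most genes.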

How the data were processed

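The authors deposited raw UMI counts as whole numbers, with 1 matrix for each bead selection. The submitters' processing notes name Cell Ranger 3.0.2 and mm10. The sources used here state neither the annotation nor a filter on cells. Barcodes carry no sample name, so genotypes were not compared, and the planned edgeR test was not run.

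Barcodes with under 200 detected genes were left out. Gates were set on raw marker UMIs, and cells that met the markers of more than 1 other gate were left out of those gates. No doublet caller was run. UMIs were summed per gate, and a sum of 0 was set to 3 counts in ratios. Genes with at least 50 UMIs over both sides were counted at 2-fold. For shares and correlations each cell was thinned at random to 2000 or 5000 UMIs, shallower cells being left out, and correlations used the natural log of 1 plus UMIs per 10000. Named genes were the members, gate genes, up to 4 of the largest and smallest ratios per list (some are not reported here) and the 3 most correlated with each member. The members and lists were chosen with earlier results of these data known. Ratio and correlation steps were tested on simulated data. Python 3.11.15, numpy 2.4.6 and scipy 1.17.1 were used. Sequences are from RefSeq (GRCm38.p6).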

Additional observations from a re-analysis of the deposited data

How the results depend on the processing

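All 169 counts of members 2-fold higher in macrophages than in a gate stayed within 1.5 times of the main count under the alternatives (*C1qa* thresholds of 1 and 10, other gates at 0 *C1qa*, cells that met 2 or more gates left out, a mean over cells, at least 1000 genes, the highest 5% of UMIs left out), and with each barcode run left out in turn they ranged between 7 and 10. Of 1690 ratios of members to gates under these settings 445 moved out of the range that counting error gives and 0 of those at 2-fold or more turned direction, 132 of 180 sub-gate ratios moved likewise, and 200 of 540 correlations moved out of the range between runs. Thinning to 2000 UMIs, no thinning, Spearman's rho, *C1qa* of at least 10 and leaving out cells of 2 or more gates kept the count of correlated pairs within 1.5 times, and centering within runs took it from 30 to 16 of 45 in CD4/CD8-selected cells. Thinning before the sub-gates took the *Ly6c2* count from 1 higher to 0 and from 0 lower to 2, and the *Mki67* count from 0 lower to 2. A mean over cells took the *Ccr2* count from 5 lower to 3 and the *Fabp4* ratio beside *Lyve1* from 0.374 to 1.10. The cause of these changes was not tested. No paired analysis was possible because no barcode could be linked to a sample or replicate number, and for the same reason no genotype value was computed. Gates of under 100 cells limit the ratios of endothelial cells, fibroblasts, neutrophils and CD11c-selected T cells.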
